A study of Mus musculus with 12 samples.

Results

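The cell cycle genes of mouse lung around birth and of mouse liver in cholestasis were examined as a group of 40 genes, named for their roles in DNA replication, mitosis and the passage into S phase. A gene counted as measured when at least 1 probe set of the array carried its symbol and no other, and in each tissue the probe set with the highest mean over the 6 arrays of that tissue stood for it. On this rule 39 of the 40 genes were measured, among 17097 genes in all. They comprised 4 regulators of the G1/S transition, 12 DNA replication genes and 23 mitosis genes. Ccnb1, which encodes cyclin B1, could not be tied to a probe set of a single symbol and was not analysed here.

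The series holds 12 arrays from C57BL/6 mice, 6 of lung and 6 of liver, hybridised as 1 sample each. The lungs came from Abcb11+/- offspring at embryonic day 17.5 (E17.5), embryonic day 18.5 (E18.5) and the day of birth (PN0, the neonatal day 0 of the labels). At each stage 1 array held lung from offspring of a WT mother mated to an Abcb11-/- father and 1 array held lung from offspring of an Abcb11-/- mother mated to a WT father, so that all 6 lung samples shared 1 genotype and differed in stage and mother. The number of animals behind each lung array is not given in the sources used here. The livers came from females 1.5 months old, 3 WT and 3 Abcb11-/-. Abcb11 encodes the bile salt export pump of the hepatocyte, and mice without it retain bile acids. The deletion is constitutive, so that every tissue of the Abcb11-/- mice and mothers carries it.

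Cells copy their DNA in S phase and divide in M phase. Replication genes, such as those of the Mcm helicase and of nucleotide synthesis, are switched on by E2F factors as a cell leaves G1, whereas mitosis genes, such as Cdk1, Top2a and the mitotic kinesins, are switched on later through the MuvB complex with B-Myb and FoxM1. Their mRNAs are abundant in growing foetal organs and scarce in the adult liver, whose hepatocytes rest in G0 but can re-enter the cycle after injury. D-type cyclins open the passage through G1, and inhibitors such as p21, the product of Cdkn1a, close it.

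Of the promoters 4 are shown because their genes recur in the results below. RefSeq promoter windows on build GRCm38.p6, each from 250 bases before to 50 bases after a start site, were held for 32 of the 40 genes (34 windows) and for 27025 genes in all (32851 windows). No window was held for Aurkb, Ccna2, Ccnd1, Ccne2, Foxm1, Kif20a, Mcm4 and Tpx2. The motifs searched, on both strands, were the cell cycle homology region TTTGAA, the CCAAT box, and the E2F motifs TTTCGCGC, TTTGGCGC and GGCGGGAA. The 250 bases before the start site are given for 2 mitosis genes, Top2a (topoisomerase that untangles sister chromatids) and Cdk1 (the mitotic kinase), and for 2 replication genes, Rrm2 (ribonucleotide reductase subunit) and Mcm2 (helicase subunit), written 5′ to 3′ along the gene with every motif match on either strand in capitals.
Top2a promoter, chr11:99024190-99024439, minus strand: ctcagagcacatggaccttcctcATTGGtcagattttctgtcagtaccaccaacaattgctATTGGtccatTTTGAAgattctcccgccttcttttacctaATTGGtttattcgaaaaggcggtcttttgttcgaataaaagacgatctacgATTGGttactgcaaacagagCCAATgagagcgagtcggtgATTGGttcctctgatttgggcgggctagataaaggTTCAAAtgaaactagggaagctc
Cdk1 promoter, chr10:69352913-69353162, minus strand: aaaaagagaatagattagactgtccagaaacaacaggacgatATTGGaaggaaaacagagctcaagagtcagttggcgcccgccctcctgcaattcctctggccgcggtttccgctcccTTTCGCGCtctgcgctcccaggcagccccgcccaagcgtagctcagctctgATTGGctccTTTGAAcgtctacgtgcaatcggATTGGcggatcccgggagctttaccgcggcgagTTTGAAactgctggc
Rrm2 promoter, chr12:24708004-24708253, plus strand: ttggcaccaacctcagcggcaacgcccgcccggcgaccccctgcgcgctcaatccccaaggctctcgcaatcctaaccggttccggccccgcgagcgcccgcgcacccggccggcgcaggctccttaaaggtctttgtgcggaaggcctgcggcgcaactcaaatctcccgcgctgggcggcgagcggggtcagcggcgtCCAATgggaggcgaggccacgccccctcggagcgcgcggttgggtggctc
Mcm2 promoter, chr6:88898781-88899030, minus strand: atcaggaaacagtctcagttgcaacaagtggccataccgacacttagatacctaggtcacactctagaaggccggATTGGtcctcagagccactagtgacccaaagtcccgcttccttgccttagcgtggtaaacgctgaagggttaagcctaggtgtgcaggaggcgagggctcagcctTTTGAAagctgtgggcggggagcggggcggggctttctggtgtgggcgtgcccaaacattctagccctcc

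TTTGAA stood in 15 of the 20 mitosis windows and in 2 of the 12 replication windows (16.7%), against 17.9% of all windows. An E2F motif stood in 5 of the 12 replication windows (41.7%) and in 1 of the 20 mitosis windows (5.0%, that of Cdk1), against 2.96% of all windows. CCAAT stood in 18 of the 20 mitosis windows (90.0%) and 10 of the 12 replication windows (83.3%), against 37.4% of all windows. The window of Top2a held 6 matches to CCAAT. The windows of Ccne1 and E2f1, the G1/S regulators held, had a match to none of these letters. These matches describe sequence and were not tested as binding sites.

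Before the results, the samples were checked against their labels. Abcb11 stood at 11.05 ± 0.17 on the log2 scale in the 3 WT livers and at 3.10 ± 0.18 in the 3 Abcb11-/- livers (mean ± SD, n = 3). Sftpc, the surfactant protein of type II cells, lay between 13.23 and 13.39 on the 6 lung arrays, and Alb between 13.80 and 13.84 on the 6 liver arrays. The E17.5 lung array with an Abcb11-/- mother stood apart. Alb was at 13.01 there. On it 9 of 11 hepatocyte markers and 9 of 10 skeletal muscle markers were at least 1.5-fold above the E17.5 array with a WT mother. The median hepatocyte marker was at 9.76 there and between 3.30 and 4.67 on the other 5 lung arrays, and the median skeletal muscle marker at 8.34 against 3.37 to 4.36. The summed signal on the log2 scale was 14.26 against 7.69 to 10.20 for the hepatocyte list and 12.05 against 7.41 to 8.41 for the skeletal muscle list. Erythroid markers (5 of 8) and neutrophil markers (6 of 8) were also higher on this array, and 6 of 8 heart muscle markers were lower. The change from E17.5 to E18.5 with a WT mother does not use this array, and its class medians and 1.5-fold counts are given separately. Mean differences over both mothers, counts of stages that did not overlap, and the main limma results of that step do use it. Lung and liver were normalised apart, so that levels were not compared between tissues, and levels of different genes were not compared because each probe set has its own response.

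In the developing lung the class medians of replication and mitosis genes were lower at each later stage. On the arrays with a WT mother the median mitosis gene stood at 8.46 at E17.5, 6.63 at E18.5 and 5.56 at PN0 on the log2 scale, and with an Abcb11-/- mother at 7.79, 6.77 and 6.25. The median replication gene stood at 8.15, 6.39 and 5.67 in the first of these series and at 7.56, 6.74 and 6.40 in the second. Over all genes the median stayed between 5.10 and 5.25 on the 6 arrays. From E17.5 to PN0 the median difference of the 39 genes was -2.01 for WT mothers and -1.26 for Abcb11-/- mothers. In whole tissue, fewer dividing cells and less RNA of these genes in each cell cannot be told apart.

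**Figure D1:**
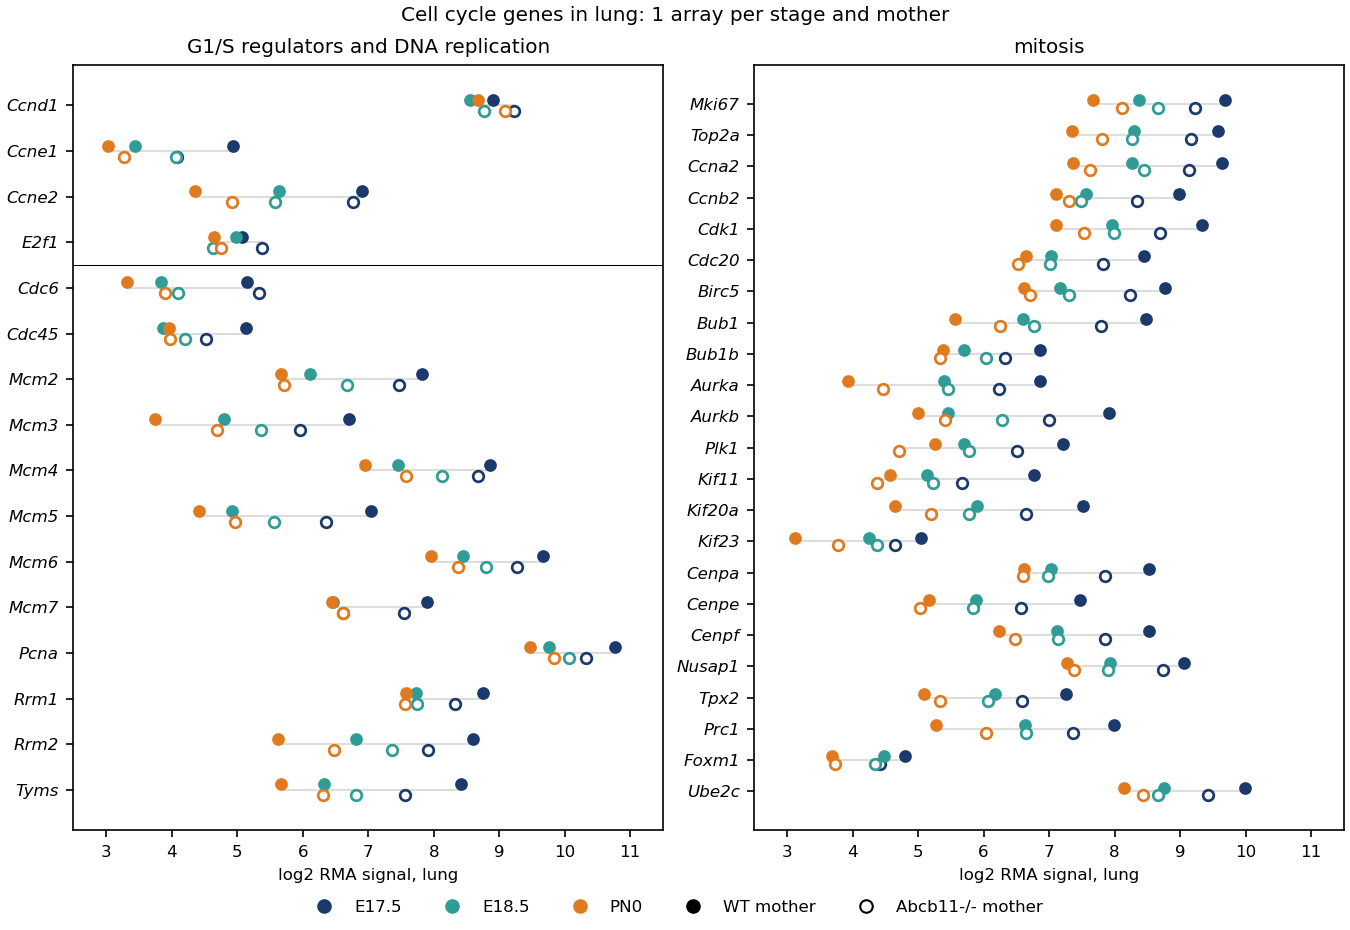
Log2 RMA signal (x axis) of each measured cell cycle gene (y axis) on the 6 lung arrays, 1 array per stage and mother; filled points are WT mothers, open points Abcb11-/- mothers, colour gives the stage and the grey line the range. Both E18.5 points lie below both E17.5 points for 38 of the 39 genes, and both PN0 points lie below both E18.5 points for all 23 mitosis genes and for 6 of the 12 replication genes.

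Between E17.5 and E18.5 nearly every gene of the group was lower. Both E18.5 arrays lay below both E17.5 arrays for 38 of the 39 genes, against 21.7% of all genes, and the exception was Foxm1, a transcription factor of the G2 and M phases. Foxm1 was dim, and on another of its probe sets these stages did not overlap, at 4.73 and 3.85, then 3.42 and 3.61. With a WT mother the step reached 1.5-fold downwards in 36 of the 39 genes, against 6.76% of all genes, and none was at least 1.5-fold higher, against 5.77%. With an Abcb11-/- mother it did so in 25 of the 39, against 3.61% of all genes, and none was as much higher, against 4.28%. The median difference was -1.42 for replication and -1.40 for mitosis genes with a WT mother, and -0.59 and -0.74 with an Abcb11-/- mother. Over all genes it was -0.01 and 0.03, WT mother first.

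Aurkb, the kinase of the chromosomal passenger complex, showed the largest mean difference among mitosis genes. It stood at 7.92 at E17.5 and 5.46 at E18.5 with a WT mother, and at 7.0 and 6.28 with an Abcb11-/- mother. Bub1, a spindle checkpoint kinase, stood at 8.48 and 6.61, against 7.79 and 6.77 for the Abcb11-/- mother. For both genes the step was larger with a WT mother, but no E18.5 array reached an E17.5 array. Birc5, the survivin subunit of the same passenger complex, had the third largest mean difference, -1.27. With a WT mother alone its difference was -1.61, and that of the mitotic kinesin Kif11 was larger, at -1.63.

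Mki67, the proliferation antigen Ki-67, stood at 9.69 and 9.22 on the 2 E17.5 arrays (WT mother first), then 8.37 and 8.66 on the E18.5 arrays, and 7.68 and 8.11 on the PN0 arrays. Top2a stood at 9.57 and 9.17, then 8.30 and 8.27, then 7.35 and 7.80. Cdk1 stood at 9.33 and 8.70, then 7.96 and 7.99, then 7.11 and 7.53. In each of these 3 mitosis genes the stages did not overlap. The same held for Ccna2, the cyclin of S phase and early mitosis, at 9.63 and 9.14, then 8.27 and 8.45, then 7.37 and 7.63.

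Among replication genes the largest mean differences between E17.5 and E18.5 were those of Mcm5 (helicase subunit, -1.46), Tyms (thymidylate synthase, -1.42) and Cdc6 (loader of the helicase, -1.27). With a WT mother alone they were those of Mcm5 (-2.12), Tyms (-2.08) and Mcm3 (-1.90). Cdc6 was the most even between mothers, with differences of -1.30 and -1.24 (WT mother first), whereas Tyms differed by -2.08 and -0.75. Mcm2 stood at 7.81 and 7.47, then 6.11 and 6.67, then 5.67 and 5.72. Pcna, the sliding clamp of the DNA polymerases, stood at 10.76 and 10.33, then 9.75 and 10.07, then 9.48 and 9.84, so that its PN0 and E18.5 arrays overlapped.

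The G1/S regulators varied among themselves. Ccne2, 1 of the 2 E-type cyclins, was lower at each step on both mothers' arrays, at 6.90 and 6.77, then 5.64 and 5.57, then 4.36 and 4.92. Ccne1 stood at 4.93 and 4.09, then 3.45 and 4.06, then 3.02 and 3.27. Ccnd1, which encodes cyclin D1, differed least of the group between E17.5 and PN0, at 8.91 and 9.23, then 8.55 and 8.76, then 8.67 and 9.09, and its mean difference from E18.5 to PN0 was 0.23 upwards. E2f1 stood at 5.07 and 5.38, then 4.98 and 4.63, then 4.64 and 4.76.

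Between E18.5 and PN0 all 23 mitosis genes were lower, whichever the mother. Of the 12 replication genes, 11 were lower for WT mothers, with Cdc45 the exception, and all 12 for Abcb11-/- mothers. By the stricter count, both PN0 arrays lay below both E18.5 arrays for 31 of the 39 genes, against 26.1% of all genes. These were 23 of 23 mitosis genes, 6 of 12 replication genes and 2 of 4 G1/S regulators; the difference between the classes was not tested. With a WT mother the step reached 1.5-fold downwards in 19 of the 39 genes, against 6.46% of all genes, and with an Abcb11-/- mother also 19, against 3.64%. None was at least 1.5-fold higher with either mother, against 5.03% and 2.72% of all genes. The median difference was -0.72 for mitosis and -0.50 for replication genes with a WT mother, and -0.60 and -0.46 with an Abcb11-/- mother. Markers of other cells differed over the same step. The median difference of the neutrophil markers was 2.19 with a WT and 1.11 with an Abcb11-/- mother, with 6 of 8 at least 1.5-fold higher in each and a summed log2 signal of 9.53 and 9.95 at E18.5 against 12.01 and 11.34 at PN0. That of the heart muscle markers was -1.01 and -0.17, with 6 and 1 of 8 at least 1.5-fold lower, and that of the hepatocyte markers -1.08 and -0.60, with 8 and 6 of 11. Their part in the step was not tested. Since the 2 steps share the E18.5 arrays, they are not independent of each other.

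Aurka, the centrosomal kinase, showed the largest mean difference at birth, with E18.5 arrays of 5.39 and 5.45 followed by 3.94 and 4.47. Prc1, the bundler of the midzone microtubules, stood at 6.63 and 6.64, then at 5.27 and 6.04. Kif20a, a kinesin of cytokinesis, stood at 5.91 and 5.78, then at 4.65 and 5.20. In all 3 the gap between stages was wider than that between mothers at E18.5. At PN0 the mothers lay further apart, by 0.53 for Aurka, 0.77 for Prc1 and 0.55 for Kif20a. The steps with an Abcb11-/- mother were -0.98, -0.60 and -0.58, so that for Prc1 the mothers differed by more than that step. Foxm1, whose E17.5 and E18.5 arrays overlapped, stood at 4.48 and 4.35, then 3.69 and 3.74. On its other probe sets, all dim, E18.5 and PN0 overlapped. They stood at 3.42 and 3.61, then 3.64 and 3.50, at 2.84 and 3.22, then 3.21 and 2.88, and at 3.51 and 3.32, then 3.05 and 3.41.

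Among replication genes, Rrm2 stood at 8.60 and 7.92 at E17.5, then 6.81 and 7.36, then 5.63 and 6.48. Mcm3, another helicase subunit, had a mean difference from E18.5 to PN0 of -0.86, and Mcm2 of -0.70. A second probe set of Mcm3 was higher at PN0, at 3.64 and 4.12, then 4.20 and 4.19, whereas that of Mcm2 was lower, at 6.12 and 6.36, then 5.63 and 5.86. At the other end were Mcm7, at 6.46 and 6.62 at E18.5 and 6.45 and 6.61 at PN0, and Cdc45, a partner of the helicase, at 3.87 and 4.20, then 3.95 and 3.98. The sign of the difference of Mcm7 turned under quantile normalization, and those of Mcm7 and Cdc45 turned when 1 array was left out.

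With 1 array per stage and mother, limma fitted stage and mother together and took the departure from additivity as its error, with 2 residual degrees of freedom. No cell cycle gene passed an adjusted p of 0.05 (Benjamini-Hochberg over 17097 genes) in either step. Over all genes 0.0526% were called higher and 0.00585% lower from E17.5 to E18.5, and 0.0% in each direction from E18.5 to PN0. The lowest adjusted p was that of Cdc6 from E17.5 to E18.5, at -1.27 (SE 0.15, adjusted p = 0.088 by limma). Without the E17.5 array with an Abcb11-/- mother 27 of the 39 genes were called lower from E17.5 to E18.5, with 1 residual degree of freedom, and with a trended and robust prior 11 were.

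**Figure D2:**
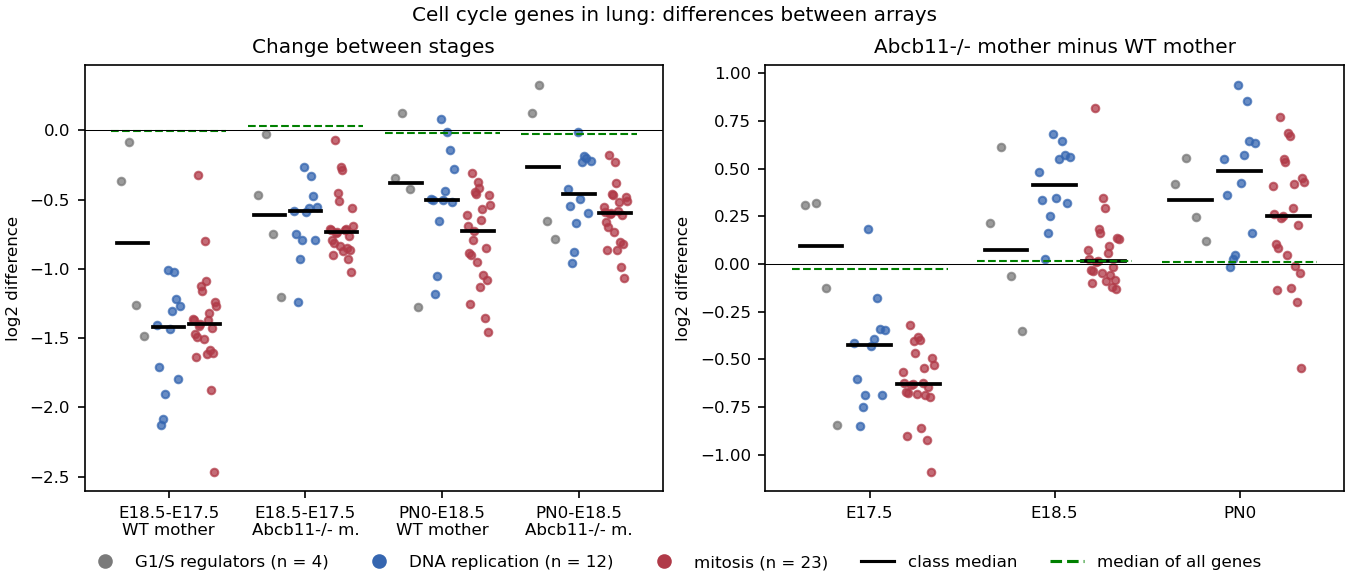
Log2 differences (y axis) of the 39 cell cycle genes between lung arrays, by class, for each step between stages with each mother (left) and for an Abcb11-/- against a WT mother at each stage (right); points are genes, black bars class medians and green dashed lines the median of all genes. The mother's difference had a median of -0.63 for mitosis and -0.42 for replication genes at E17.5, and of 0.02 and 0.41 at E18.5.

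The median difference between mothers was below 0 at E17.5 and above it at E18.5 and PN0 for replication genes, and below 0 at E17.5 and above it at PN0 for mitosis genes, whereas that of the G1/S regulators was 0.09, 0.07 and 0.33 at the 3 stages. At E17.5, 36 of the 39 genes were lower with an Abcb11-/- mother, all 23 mitosis genes among them, and 20 were at least 1.5-fold lower, against 3.55% of all genes. None was at least 1.5-fold higher, against 3.47%. The median difference was -0.63 for mitosis genes and -0.42 for replication genes. This is the comparison that rests on the array with hepatocyte and skeletal muscle RNA, where type II and club and ciliated markers were also higher. The part of any of these markers in it was not tested.

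At E17.5 the mitotic kinesin Kif11 differed most, at 6.77 with a WT and 5.68 with an Abcb11-/- mother, followed by Aurkb (difference -0.92) and Cenpe, a kinetochore kinesin (-0.90). Tyms (-0.85), Mcm3 (-0.75) and Mcm5 (-0.69) led the replication genes. Cdc6 went the other way, at 5.15 with a WT and 5.33 with an Abcb11-/- mother. Ccne1 was lower, at 4.93 and 4.09, whereas Ccnd1 (0.32) and E2f1 (0.31) were higher with an Abcb11-/- mother. A second probe set of E2f1 was not higher, at 5.01 and 4.93. Other probe sets of Ccnd1 differed less, at 8.51 and 8.69 and at 8.87 and 8.89.

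At E18.5 all 12 replication genes were higher with an Abcb11-/- mother, by 0.02 (Rrm1) to 0.68 (Mcm4), whereas 13 of the 23 mitosis genes were higher and 10 lower. The class medians were 0.41 for replication and 0.02 for mitosis genes, against 0.01 for all genes. At least 1.5-fold higher were 4 genes, Ccne1, Mcm4, Mcm5 and Aurkb, against 2.13% of all genes, and none was as much lower, against 1.26%. Mcm4 stood at 7.45 with a WT and 8.13 with an Abcb11-/- mother, Mcm5 at 4.92 and 5.57, and Aurkb at 5.46 and 6.28. A second probe set of Aurkb went the other way, at 4.45 and 4.30, and that of Mcm5 stood at 3.12 and 3.41. Mcm2 (0.57), Bub1b, a checkpoint kinase (0.35), and Mki67 (0.29) came next in their classes. Other probe sets of Bub1b differed less, at 5.63 and 5.69 and at 3.84 and 3.85, and that of Mcm2 stood at 6.12 and 6.36. The largest differences downwards among mitosis genes were -0.13 for Foxm1, -0.12 for Kif20a and -0.10 for Tpx2, a spindle assembly factor.

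On the day of birth 11 of 12 replication genes, 17 of 23 mitosis genes and 4 of 4 G1/S regulators were higher with an Abcb11-/- mother. At least 1.5-fold higher were 7 genes, against 4.16% of all genes, and none was as much lower, against 2.88%. The replication genes among them were Mcm3, at 3.75 with a WT and 4.69 with an Abcb11-/- mother, Rrm2, at 5.63 and 6.48, Tyms, at 5.67 and 6.32, and Mcm4, at 6.95 and 7.58. A second probe set of Mcm3 did not show the difference, at 4.20 and 4.19, whereas that of Rrm2 stood at 4.91 and 5.63. The other probe sets of Tyms were dim, at 2.78 to 3.09. The mitosis genes were Prc1 (0.77), Bub1 (0.69) and Kif23, a kinesin of cytokinesis (0.67). Their second probe sets stood at 5.04 and 5.55 for Prc1, 3.35 and 3.81 for Bub1, and 2.92 and 2.83 for Kif23. Plk1, the polo kinase of mitosis, was the furthest in the other direction, at 5.25 with a WT and 4.71 with an Abcb11-/- mother, followed by Kif11 (-0.20) and Cenpe (-0.14). Second probe sets of Kif11 (2.99 and 3.02) and Cenpe (3.56 and 3.96) were not lower with an Abcb11-/- mother. Among markers, 5 of 8 for heart muscle were higher by 1.5-fold or more for the Abcb11-/- mother in this comparison and 4 of 8 for neutrophils were as much lower, and their part in the difference was not tested.

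Over the 3 stages together no cell cycle gene differed with the mother at an adjusted p of 0.05 by limma. The share of all genes called was 0.0% in each direction. Each difference at a single stage compares 1 array with 1 array and has no replicate error, and these differences use the same arrays as the steps between stages.

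Outside the group of 40, most other replication and mitosis genes were also lower at E18.5, whereas the other lists lay nearer to the share of all genes. Both E18.5 arrays lay below both E17.5 arrays for 38 of 44 other replication genes and 46 of 54 other mitosis genes. The same held for 12 of 22 other cyclins, kinases and E2F/RB factors of G1/S and for 8 of 25 CDK inhibitors, p53 targets and antiproliferative genes, against the 21.7% of all genes. From E18.5 to PN0 the counts were 21 of 44, 41 of 54, 10 of 22 and 6 of 25, against 26.1%. Cdkn1a stood at 6.80 and 7.05 at E17.5, 7.87 and 7.50 at E18.5 and 9.46 and 9.58 at PN0, and its stages did not overlap. Its difference from E18.5 to PN0 was 1.83 with an adjusted p of 0.08 by limma.

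In the adult liver 1 Abcb11-/- array stood above the other 5 in most cell cycle genes. No gene of the group passed an adjusted p of 0.05 between Abcb11-/- and WT by limma, whereas 4.33% of all genes were called higher and 2.91% lower. The lowest adjusted p was that of Mcm4, at 0.16 by limma, and the methods' t-test called none. All 3 Abcb11-/- livers lay above all 3 WT livers for 3 of the 39 genes (Rrm2, Top2a and Bub1), against 13.8% of all genes, and below them for none, against 12.1%. On the other, dimmer probe sets of these 3 genes the genotypes overlapped. The median difference was 0.90 for mitosis genes, 0.33 for replication genes and -0.02 for G1/S regulators, against 0.00 for all genes. Most cell cycle probe sets were dim in liver, with 6 of the 39 at a mean log2 value of at least 6.

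**Figure D3:**
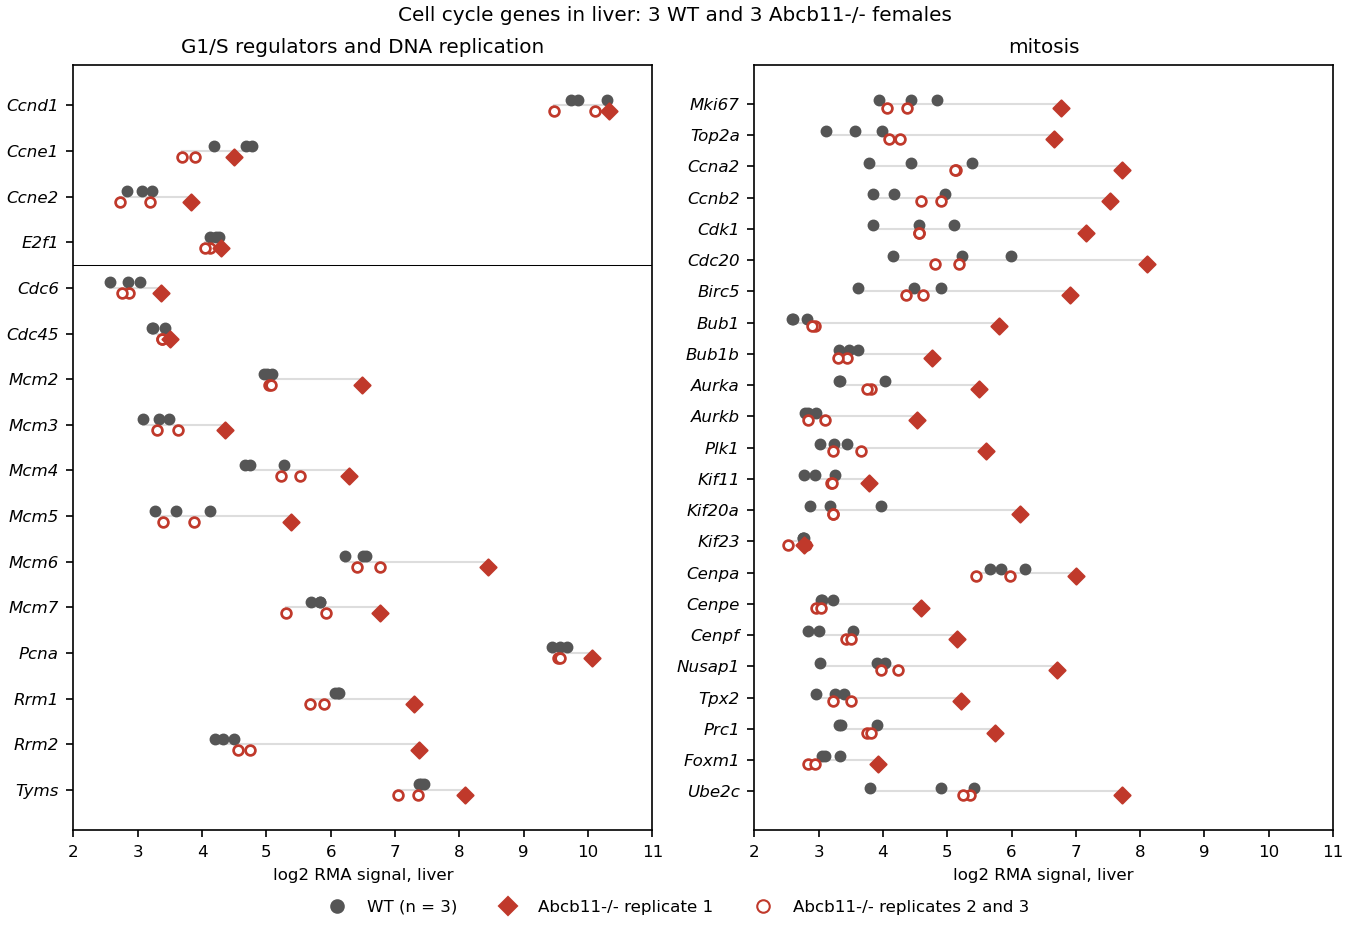
Log2 RMA signal (x axis) of each measured cell cycle gene (y axis) on the 6 liver arrays; grey points are the 3 WT livers, the red diamond is Abcb11-/- replicate 1, open red points are Abcb11-/- replicates 2 and 3, and the grey line is the range. The diamond lies at least 1.5-fold above the other 5 livers for 31 of the 39 genes.

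The liver of Abcb11-/- replicate 1 was at least 1.5-fold above the highest of the other 5 livers for 31 of the 39 genes, against 1.37% of all genes, and for none was it as far below the lowest, against 0.368%. These 31 were 21 of 23 mitosis genes, 9 of 12 replication genes and 1 of 4 G1/S regulators. On no other liver array was any of the 39 genes that far above the other 5. The median mitosis gene stood at 3.91, 3.24 and 3.35 in the 3 WT livers and at 5.80, 3.76 and 3.75 in the 3 Abcb11-/- livers. The median replication gene stood at 5.15, 4.86 and 4.88 in WT and at 6.62, 5.13 and 5.30 in Abcb11-/- livers. This liver was singled out after its values had been seen, so that the counts describe it and carry no test.

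Top2a had the largest difference between genotypes. It stood at 3.99, 3.11 and 3.56 in WT livers and at 6.66, 4.10 and 4.27 in Abcb11-/- livers, a difference of 1.46 (SE 0.63, adjusted p = 0.24 by limma). Ccna2 stood at 5.39, 3.79 and 4.44, then 7.71, 5.14 and 5.12, and Ube2c, the ubiquitin-conjugating enzyme of the anaphase-promoting complex, at 5.42, 3.80 and 4.90, then 7.71, 5.36 and 5.24. In each the first Abcb11-/- liver lay more than 4-fold above the other 5, and the other two Abcb11-/- livers lay near or within the WT range.

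Mki67 stood at 4.84, 3.94 and 4.44 in WT and at 6.77, 4.06 and 4.37 in Abcb11-/- livers. Cdk1 stood at 5.10, 3.85 and 4.56, then 7.15, 4.56 and 4.56. Apart from replicate 1 the 2 genotypes overlapped in both genes. The widest gap of replicate 1 to the next liver was that of Bub1, at 2.82, 2.60 and 2.59 in WT and 5.80, 2.95 and 2.90 in Abcb11-/- livers. A second, dim probe set of Bub1 did not show this gap, at 2.66, 2.64 and 2.76, then 2.81, 2.77 and 2.67. Kif23 (2.77, 2.76 and 2.75, then 2.77, 2.80 and 2.52) was the 1 mitosis gene with a difference below 0, and with Kif11 it was 1 of the 2 that did not single out that liver. Foxm1 stood at 3.33, 3.06 and 3.10, then 3.93, 2.84 and 2.95.

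The replication gene with the largest difference was Rrm2, at 4.49, 4.20 and 4.32 in WT and 7.38, 4.74 and 4.56 in Abcb11-/- livers (1.22, SE 0.67, adjusted p = 0.36 by limma). On a second probe set of Rrm2 replicate 1 stood out less, at 4.29, 3.47 and 3.69, then 4.94, 3.75 and 3.57. Mcm6 stood at 6.55, 6.22 and 6.5, then 8.44, 6.41 and 6.77, and Mcm4 at 5.28, 4.75 and 4.66, then 6.29, 5.22 and 5.52. Mcm2 stood at 5.01, 4.97 and 5.09, then 6.48, 5.04 and 5.07. In these 4 genes replicate 1 was above every other liver. Pcna differed little, at 9.68, 9.44 and 9.56, then 10.07, 9.53 and 9.56, and Cdc6 and Cdc45 were the other 2 replication genes less than 1.5-fold apart.

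The G1/S regulators stood out less than the other classes in that liver. Its median gap to the highest of the other 5 livers was 0.025 for them, 0.80 for replication and 1.93 for mitosis genes. Against the mean of Abcb11-/- replicates 2 and 3 alone, all 4 were higher, by 0.205 (E2f1) to 0.87 (Ccne2). Ccne1, Ccne2 and E2f1 were dim, at mean log2 values of 4.285, 3.145 and 4.18. Ccnd1 stood at 10.30, 9.84 and 9.74 in WT and 10.32, 9.47 and 10.11 in Abcb11-/- livers, and E2f1 at 4.22, 4.13 and 4.26, then 4.29, 4.12 and 4.05. Ccne1 stood at 4.18, 4.78 and 4.68, then 4.49, 3.69 and 3.89, with overlapping genotypes (-0.52, SE 0.23, adjusted p = 0.25 by limma), and Ccne2 stood at 2.83, 3.07 and 3.22, then 3.83, 2.73 and 3.19. Ccne2 was the regulator at least 1.5-fold above the other 5 livers on replicate 1.

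Without Abcb11-/- replicate 1 the median difference was 0.16 for mitosis genes and 0.02 for replication genes, and 15 of the 39 differences changed sign. No gene of the group was called then either, the lowest adjusted p being that of Ccne1 at -0.76 (adjusted p = 0.053 by limma). Top2a kept a difference of 0.63 (adjusted p = 0.17) and Mki67 was at -0.19. Marker genes were read on the same arrays. The median hepatocyte marker was at 13.02 in replicate 1 and between 13.08 and 13.15 in the other 5 livers, and the median macrophage marker at 7.71 against 7.95 to 9.15. Of the markers of macrophages, neutrophils, T and NK cells, B cells, erythroid cells, endothelium and bile duct, none was at least 1.5-fold above the other 5 livers there. Among stellate cell and fibroblast markers 2 of 10 were, with a list median of 5.41 against 4.36 to 4.90 and a summed signal of 12.34 against 11.76 to 11.98 on the log2 scale, and the bile duct median was 4.03 against 3.30 to 3.68. Their part in the result was not tested.

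Over all genes 234 were at least 1.5-fold above the other 5 livers in Abcb11-/- replicate 1. The 31 genes of the group and 48 of the 145 measured genes of the 4 wider lists made up 79 of them. Of the wider lists 34 of 54 other mitosis genes, 9 of 44 other replication genes, 3 of 22 other G1/S factors and 2 of 25 CDK inhibitors, p53 targets and antiproliferative genes were so placed.

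Of the 25 CDK inhibitors, p53 targets and antiproliferative genes outside the group 5 rose in Abcb11-/- livers (20.0%) and none fell, against 4.33% and 2.91% of all genes, and 20 did not pass the test. Gadd45g, a growth arrest and stress response gene, stood at 4.23, 5.73 and 4.17 in WT and 7.47, 7.65 and 7.16 in Abcb11-/- livers (2.72, SE 0.39, adjusted p = 0.008 by limma). Its relative Gadd45b stood at 5.52, 4.72 and 4.56, then 7.69, 6.99 and 7.48 (2.45, SE 0.28, adjusted p = 0.003 by limma). Btg2, an antiproliferative p53 target, stood at 6.24, 5.41 and 6.31, then 7.65, 7.71 and 7.70 (1.70, SE 0.22, adjusted p = 0.006 by limma). In these 3 genes the genotypes did not overlap, and the calls held without each replicate in turn.

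Ccng2, an atypical cyclin of resting cells, stood at 7.54, 7.64 and 7.45 in WT and 8.53, 7.95 and 8.68 in Abcb11-/- livers, and Btg1 at 9.30, 9.26 and 8.96, then 9.83, 9.87 and 10.28. Their differences were 0.84 (SE 0.18, adjusted p = 0.035) and 0.82 (SE 0.15, adjusted p = 0.020) by limma, and both calls were lost without any 1 of the 3 WT livers. For Ccng2 the adjusted p was 0.114, 0.102 and 0.127 without WT replicate 1, 2 and 3, and 0.066 and 0.097 without Abcb11-/- replicate 1 and 3, and for Btg1 it was 0.055, 0.068 and 0.072 without the 3 WT livers. With the mean of all probe sets both calls were also lost (adjusted p = 0.147 for Ccng2 and 0.126 for Btg1). Cdkn1a stood at 3.72, 4.07 and 4.02 in WT and 5.80, 4.93 and 7.25 in Abcb11-/- livers, with no overlap and a wide spread among the latter (2.06, SE 0.50, adjusted p = 0.053 by limma). Its adjusted p was 0.011 and 0.036 without Abcb11-/- replicate 2 and 3, but 0.067 without Abcb11-/- replicate 1, 0.160, 0.151 and 0.149 without WT replicate 1, 2 and 3, and 0.125 with the trended and robust prior.

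**Figure D4:**
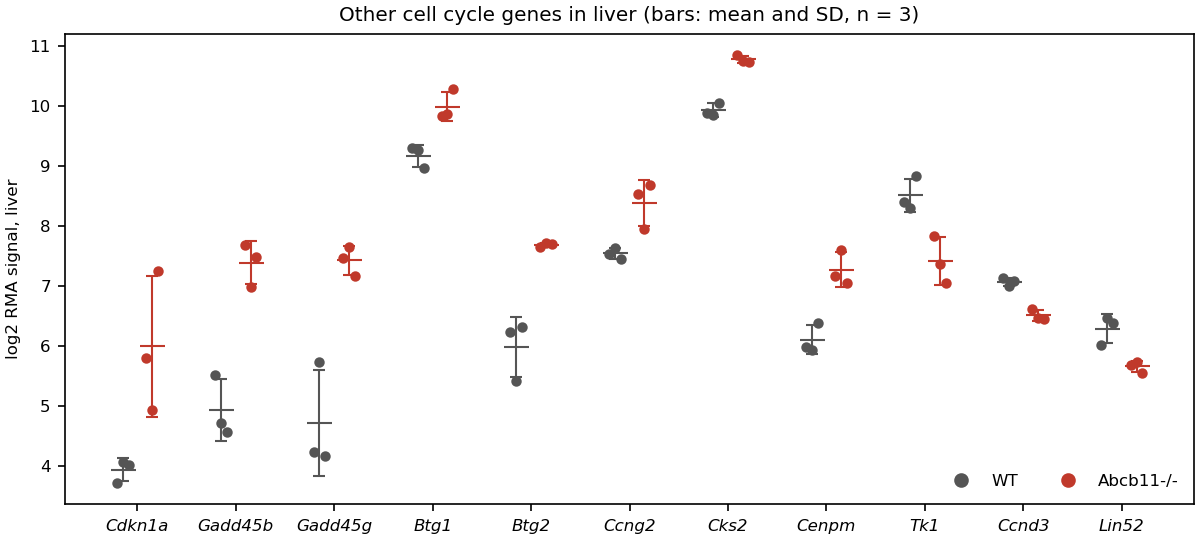
Log2 RMA signal (y axis) in liver of Cdkn1a and of the 10 genes called between genotypes (x axis) in the 4 wider cell cycle lists; points are livers and bars mean and SD of 3. Gadd45b, Gadd45g, Btg1, Btg2, Ccng2, Cks2 and Cenpm are higher in all 3 Abcb11-/- livers, and Tk1, Ccnd3 and Lin52 lower.

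In the remaining lists few genes were called, at shares near those of all genes (4.33% higher and 2.91% lower) for replication and mitosis. Of the other mitosis genes 2 of 54 rose (3.70%) and none fell. Cks2, a subunit of the Cdk1 complex, stood at 9.89, 9.85 and 10.06 in WT and 10.85, 10.75 and 10.74 in Abcb11-/- livers (0.85, SE 0.09, adjusted p = 0.003 by limma). Cenpm, a centromere protein, stood at 5.99, 5.94 and 6.38, then 7.16, 7.60 and 7.05 (1.17, SE 0.18, adjusted p = 0.009), and its adjusted p was 0.0504 without WT replicate 2. In both genes all 3 Abcb11-/- livers lay above all 3 WT livers. Of the other replication genes 1 of 44 fell (2.27%) and none rose. It was Tk1, the cytosolic thymidine kinase, at 8.40, 8.30 and 8.83 in WT and 7.84, 7.37 and 7.05 in Abcb11-/- livers (-1.09, SE 0.22, adjusted p = 0.026 by limma). Its call was lost without each WT liver and without Abcb11-/- replicates 2 and 3, with adjusted p-values from 0.052 to 0.092. Of the other G1/S factors 2 of 22 fell (9.09%) and none rose. Ccnd3, which encodes cyclin D3, stood at 7.13, 7.0 and 7.09, then 6.62, 6.46 and 6.45 (-0.56, SE 0.09, adjusted p = 0.012 by limma), and its adjusted p was 0.054 and 0.053 without WT replicate 1 and 3 and 0.121 with the mean of all probe sets. Lin52, a MuvB subunit, stood at 6.02, 6.47 and 6.38, then 5.69, 5.74 and 5.55 (-0.63, SE 0.13, adjusted p = 0.031 by limma), and its adjusted p was 0.120, 0.115 and 0.104 without WT replicate 2, WT replicate 3 and Abcb11-/- replicate 3.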

How the data were processed

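RNA was hybridised to Affymetrix HT MG-430 PM plate arrays, 1 array per sample. The deposited values are log2 signals made by the authors with RMA, and the submitters' processing notes also name Partek 6.5. Array medians were 3.63 to 3.68 in lung and 3.15 to 3.18 in liver. Of 45037 probe sets 28898 had 1 gene symbol, 551 several and 15588 none. The brightest probe set per tissue stood for each of 17097 genes, and 33 members used the same one in both tissues. The number of arrays limits the precision.

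Genes were tested with limma 3.58.1 (R 4.3.3) on log2 values with Benjamini-Hochberg adjustment over all genes at 0.05, by genotype in liver, and by stage plus mother in lung. No residual replicate exists per lung stage and mother, so differences there are descriptions, counted at 1.5-fold. Tests measure the spread between these samples only, since nothing states how many animals each holds. An exact permutation test of 3 against 3 cannot go below 0.1. On simulated data with 17097 genes the liver fit recovered 85% of 2-fold and 97% of 4-fold changes, with 6 false calls. The lung fit from E18.5 to PN0 recovered 15% and 67%, with 0 false calls. Replicate numbers of the livers did not pair the samples, with correlations of deviations of -0.045, -0.041 and -0.135 for the numbers 1, 2 and 3. No 2 arrays held identical values.

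Members, lists and tests were chosen with earlier results of these data known. Genes named with values are Mki67, Top2a, Cdk1, Ccna2, Pcna, Mcm2, Rrm2, Ccnd1, Ccne1, E2f1, Foxm1 and Cdkn1a (the rule also held Ccnb1, which was not measured), the 3 largest differences per class and direction in each comparison, and called genes of the wider lists, up to 4 each way. Btg1, next by size after the first 4 of its list, and all other named genes were chosen after their values were seen. Alternatives were other probe set choices, a minimum of 6, quantile normalization, median centring, another prior, a replicate block, the methods' t-test and leaving out arrays.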

Additional observations from a re-analysis of the deposited data

Results flagged for a closer look

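The difference with an Abcb11-/- mother had opposite signs at different stages in replication and mitosis genes. The median log2 difference of the replication genes was -0.42 at E17.5, 0.41 at E18.5 and 0.49 at PN0. That of the mitosis genes was -0.63 at E17.5 and 0.25 at PN0. Each stage has 1 array per mother, so the difference between stages was not tested. The E17.5 value rests on the array with hepatocyte and skeletal muscle RNA, and its part in the change of sign was not tested.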

How the results depend on the processing

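In liver no cell cycle gene was called under any alternative except the replicate block, where 1 was (Mcm4, adjusted p = 0.046 by limma). Genes called over both directions numbered 1238, and 671 with the replicate block, 49 by the methods' t-test after Benjamini-Hochberg, 3129 at its own threshold and 492 to 1509 without 1 replicate. In the wider lists the block lost the calls of Btg1, Ccng2, Lin52 and Tk1 (adjusted p = 0.080, 0.088, 0.072 and 0.081), and the methods' t-test after Benjamini-Hochberg lost all 10. The replicate numbers do not pair the samples. The mitosis median was 0.16 to 1.23 and the replication median 0.02 to 0.62 without 1 replicate.

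From E17.5 to E18.5, 0 to 27 cell cycle genes were called lower without 1 array and 11 with the trended and robust prior, against 0. Over all genes 10 were called there, with 0 under quantile normalization, 45 at a mean log2 of at least 6, 197 with the trended and robust prior and 0 to 307 without 1 array. From E18.5 to PN0 the count was 0, with 14 for the mean of all probe sets, 2 without s or x probe sets, 18 at a mean of at least 6, 87 with the trended and robust prior, 35 without both E17.5 arrays and 0 to 35 without 1 array. For the mother it was 0, with 1 at a mean of at least 6 and 1 with the trended and robust prior.

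At 2-fold instead of 1.5-fold, counts of cell cycle genes with an Abcb11-/- mother went from 20 lower to 1 at E17.5, from 4 higher to 0 at E18.5 and from 7 higher to 0 at PN0. Those from E17.5 to E18.5 went from 25 to 3 with an Abcb11-/- mother, and those from E18.5 to PN0 from 19 to 9 with a WT and 19 to 1 with an Abcb11-/- mother. A mean log2 of at least 6 leaves 24 genes in lung and 6 in liver. On these the same counts were 11 at E17.5 and 2 at E18.5 by mother, 23 and 16 from E17.5 to E18.5 (WT mother first), and 12 and 8 from E18.5 to PN0. Genes with both arrays of a stage below both arrays of the stage before were then 24 and 20. Of the 6 genes in liver 4 singled out Abcb11-/- replicate 1. With the mean of all probe sets 2 were higher by mother at E18.5 and 3 at PN0, and 12 and 10 lower from E18.5 to PN0. Medians of the G1/S regulators were not computed at that minimum, which left 1 of them. The counts for Abcb11-/- replicate 1 and their alternatives, 24 to 31 of the genes measured otherwise, were chosen after seeing the data. The causes were not tested.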
